A study of Mus musculus with 2 samples.

Results

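The genes of Wnt signalling were examined in maps of open chromatin from B6NCrl mouse embryos of embryonic day 10.5. Members were the protein-coding genes of the GENCODE M21 annotation whose symbols name a Wnt ligand, a Frizzled receptor, Rspo1 to Rspo4, Lgr4 to Lgr6, Lrp5, Lrp6, Axin1, Axin2, Dkk1 to Dkk4, Sfrp1 to Sfrp5, Wif1, Lef1, Tcf7, Tcf7l1, Tcf7l2, Ctnnb1, Apc, Znrf3 or Rnf43. This rule found 57 of 21938 protein-coding genes, and no gene of M21 carries the symbol Sfrp3. The assay was DNase-seq, in which DNase I cuts accessible DNA and sequencing of the released ends shows where it cut. The study held 1 group of 2 biological replicates, male and female embryos pooled, untreated and labelled healthy, so there was no contrast between conditions and no test between groups.

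Wnt proteins are secreted, lipid-bearing ligands that bind Frizzled receptors together with the co-receptors Lrp5 and Lrp6. Without a ligand, a complex built on Axin and Apc marks beta-catenin (Ctnnb1) for destruction. With a ligand, beta-catenin builds up and joins the DNA-binding factors Lef1, Tcf7, Tcf7l1 and Tcf7l2 at the motif CTTTGAT or close variants of it. R-spondins (Rspo) act through Lgr4 to Lgr6 and shield Frizzled from the ubiquitin ligases Znrf3 and Rnf43. Sfrp, Wif1 and some Dkk proteins block the pathway outside the cell. In the embryo these signals pattern the neural tube, limb buds and tail bud and guide the neural crest.

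On the nuclear chromosomes there were 207946 peaks, each 150 bp wide, in replicate 1 and 229568 in replicate 2, and the number of reads behind them is unknown. Each peak carries a whole-number score deposited by the authors, called strength here. It is bounded, its definition is not stated in the files, and its median was 41 in replicate 1 and 50 in replicate 2. A promoter counted as open if both replicates had a peak no more than 1 kb from an annotated transcription start site (TSS) of the gene. Its strength in a replicate was that of its strongest such peak. Coordinates are on mm10. Of 12 marker genes of neural tube, heart, somite and limb bud all 12 were open, while 1 of 3 erythroid markers (Epor), 1 of 3 endothelial markers (Kdr) and 0 of 4 markers of trophoblast and decidua were. Klf1 and Cdh5 had a promoter peak in replicate 1 only, and Gata1 and Tek in neither. Of all protein-coding genes 69.7% were open, so an open marker promoter alone does not show which tissues were present. The tissue label names no part of the embryo.

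The sequences below were picked from peaks that carry the TCF/LEF core motif at genes of the pathway itself. Among the genes shown are Axin2, Tcf7, Lef1, Znrf3 and Dkk1, which are known as targets of the pathway, so that their products feed back on it. Left out were, among others, TSS peaks of Dkk2, Dkk3 and Wnt16 and a distal peak near Dkk3 (103 and 108). The choice therefore does not show that matches gather at known targets. Letters were read from the RefSeq copy of GRCm38.p6, plus strand, 5′ to 3′, with CTTTGAT or its reverse complement ATCAAAG in capitals. Peaks that touch an untranslated or noncoding exon are shown only as the motif with 10 bases on each side.
Axin2, first site, chr11:108921222-108921248: ggccggcgcgCTTTGATgtgcggggcg
Axin2, second site, chr11:108923062-108923088: tactttcttgCTTTGATgttgggtaga
Wnt11, promoter, chr7:98835051-98835077: acgtgggcggATCAAAGcgacggtccg
Dkk1, promoter, chr19:30550356-30550505: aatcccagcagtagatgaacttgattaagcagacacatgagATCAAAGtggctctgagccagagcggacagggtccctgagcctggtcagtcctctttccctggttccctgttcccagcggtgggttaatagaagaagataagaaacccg
Tcf7, promoter, chr11:52283336-52283485: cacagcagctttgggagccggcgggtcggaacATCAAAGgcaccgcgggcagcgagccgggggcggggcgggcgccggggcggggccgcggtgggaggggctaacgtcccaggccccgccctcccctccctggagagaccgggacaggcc
Lef1, distal, chr3:131137274-131137300: gcggccttggCTTTGATctcttcaaag
Znrf3, distal, chr11:5391376-5391525: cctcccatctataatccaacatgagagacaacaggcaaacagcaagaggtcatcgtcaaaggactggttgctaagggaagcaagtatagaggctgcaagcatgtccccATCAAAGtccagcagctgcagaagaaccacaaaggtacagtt
Fzd2, distal, chr11:102595516-102595665: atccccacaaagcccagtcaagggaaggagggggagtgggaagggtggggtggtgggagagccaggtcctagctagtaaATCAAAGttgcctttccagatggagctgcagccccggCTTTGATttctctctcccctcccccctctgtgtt

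Nearly all Wnt pathway promoters were open, but the ligands were open weakly and the Frizzled receptors strongly. Of the 57 genes, 53 had a promoter peak in both replicates, against 69.7% of all protein-coding genes. Open Wnt pathway promoters had a median strength of 101, with 98 in replicate 1 and 105 in replicate 2, against 113.5 for all 15300 open genes. The 17 open ligand promoters had a median of 70, while the 10 Frizzled promoters had a median of 126. In a mixture of tissues, a peak that is open in fewer cells and one that is less open in each cell cannot be told apart.

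Most of these promoters are rich in CpG, as open promoters often are. In the 500 bp to each side of the 5′-most TSS, observed CpG over expected CpG was 0.6 or more in 42 of the 57 genes, and 40 of these were open, against 97.9% of the 10078 protein-coding genes with such a ratio. Of the 15 genes below that ratio 13 were open, against 45.8% of all genes below it. The share of open genes thus lay near that of other CpG-rich genes, and at this limit the larger gap was among the CpG-poor ones. With a limit of 0.4, 96.2% of the 52 Wnt pathway genes at or above it were open, against 95.4% of all such genes. The CpG-poor genes that were not open, Wnt10a and Dkk4, had ratios of 0.39 and 0.31. The ratio describes the 5′-most TSS only, and Ctnnb1 (0.40) had its peak at another TSS. The gap among CpG-poor genes was not tested at other limits. Among CpG-rich open promoters the ligands still had a median of 77.75 (12 genes) and the Frizzled genes 126 (10 genes), beside 119.5 for all 9864.

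**Figure D1:**
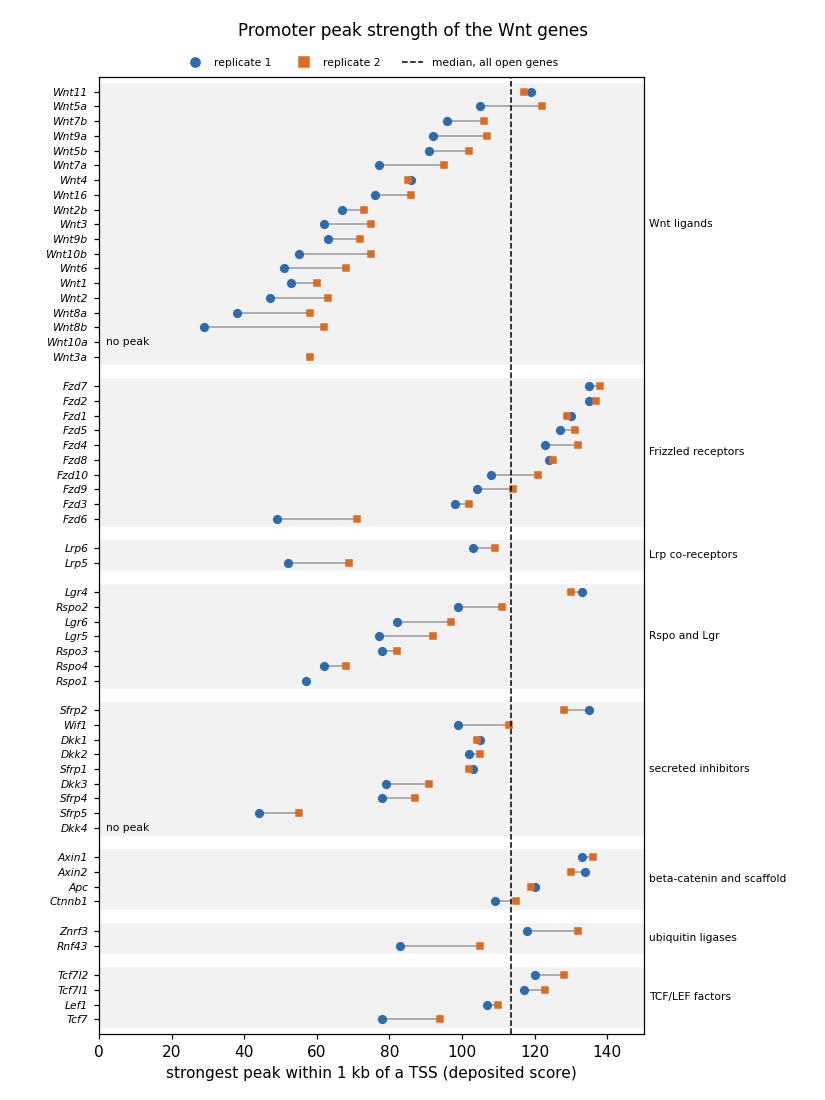
Strength of the strongest peak within 1 kb of a TSS (deposited score, x axis) for each of the 57 genes by role, with replicate 1 as circles, replicate 2 as squares and the median of all open genes (113.5) as a dashed line. Most ligands lie left of the line, and 7 of 10 Frizzled genes have a mean to its right.

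Among the ligands the strongest promoters were those of Wnt11, Wnt5a and Wnt7b. Wnt11 scored 119 in replicate 1 and 117 in replicate 2. Wnt5a, which with Wnt11 is best known for signalling without beta-catenin, scored 105 and 122. Wnt7b scored 96 and 106. Only Wnt11 had a mean above the median of all open genes. Next came Wnt9a (92 and 107), Wnt5b (91 and 102), Wnt7a (77 and 95) and Wnt4 (86 and 85), the last a ligand of kidney and gonad. In this upper part of the order, neighbours such as Wnt9a and Wnt7b differed by less than the replicates of either gene. Below them came Wnt16 (76 and 86), Wnt2b (67 and 73), Wnt3 (62 and 75), Wnt9b (63 and 72) and Wnt10b (55 and 75).

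The weakest open ligand promoters belonged to Wnt8b (29 and 62 in replicates 1 and 2), Wnt8a (38 and 58), Wnt2 (47 and 63), Wnt1 (53 and 60) and Wnt6 (51 and 68). These values depend on the 1 kb limit. Just outside it, Wnt6 had a peak of 118 and 117 at 1304 bp from a TSS, and Wnt8b one of 82 and 89 at 1615 bp. Wnt1, the ligand of the midbrain and dorsal neural tube, ranked at the 8.34th percentile of all open genes by mean strength. Wnt8a is used mainly in the primitive streak of earlier embryos, and Wnt8b in the forebrain. Neither of these genes was open when only the stronger 50% of the peaks of each replicate were kept.

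The ligand genes Wnt3a and Wnt10a were not open in both replicates. Wnt3a, the ligand of the tail bud and dorsal neural tube, had a peak of 58 in replicate 2, 647 bp from its TSS, and none in replicate 1, where the nearest peak lay 2984 bp away. Wnt10a had no peak within 1 kb in either replicate, with the nearest at 1253 bp (47) in replicate 1 and 3391 bp (99) in replicate 2. No hotspot, the authors' wider open region, lay within 1 kb of its TSSs. Among all genes 27.0% had no promoter peak in either replicate and 2.18% had one in replicate 2 only.

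All 10 promoters of the Frizzled genes, which encode the receptors for Wnt ligands, were open. Fzd7 scored 135 and 138 in replicates 1 and 2. Fzd2 scored 135 and 137, and Fzd1 scored 130 and 129. The mean strength of Fzd7 lay at the 95.6th percentile of all open genes. Fzd5 (127 and 131), Fzd4 (123 and 132), Fzd8 (124 and 125) and Fzd10 (108 and 121) were also above the median of open genes in their mean, and Fzd9 (104 and 114) and Fzd3 (98 and 102) were below it. Fzd6, a receptor of planar cell polarity, stood apart at 49 and 71. The replicates of the Frizzled genes lay close, with a median SD of 2.83 over the 10 genes, against 9.19 over the 17 open ligands and 5.66 over all open genes. Ctnnb1, Apc and the Axin genes, with a median strength of 125.75, had a median SD of 2.47, while Znrf3, with a mean of 125, had 9.90. The score is bounded, and whether its spread follows strength was not tested.

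The co-receptor genes differed from each other. Lrp6 scored 103 and 109 in replicates 1 and 2, and Lrp5, best known for its part in bone mass, scored 52 and 69. The pairs of values did not overlap.

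Of the R-spondins and their receptors, Lgr4 was the strongest (133 and 130). Rspo2, which acts in limb and lung growth, followed with 99 and 111, and Lgr6 with 82 and 97. Lgr5, known as a marker of adult stem cells and a target of the pathway, scored 77 and 92. Rspo3 had 78 and 82, and Rspo4 was the weakest open gene of this role with 62 and 68. Rspo1, a factor of ovary development, had a promoter peak of 57 in replicate 1 and none in replicate 2, where the nearest peak lay 2086 bp away and no hotspot lay within 1 kb. A peak in replicate 1 only was found in 1.09% of all genes.

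The secreted inhibitors spanned almost the whole range. Sfrp2 was the strongest, with 135 and 128, and Wif1 followed with 99 and 113. Dkk1, an inhibitor needed for head formation, scored 105 and 104. Dkk2 (102 and 105) and Sfrp1 (103 and 102) lay within a few units of Dkk1, less than the spread seen between the replicates of Wif1. Dkk3 (79 and 91) and Sfrp4 (78 and 87) were lower, and Sfrp5 was the weakest with 44 and 55. Dkk4 had no promoter peak in either replicate, with nearest peaks of 20 at 3253 bp in replicate 1 and 33 at 1078 bp in replicate 2. Its CpG ratio was 0.31.

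The genes that act inside the cell were all open. Axin1 scored 133 and 136 in replicates 1 and 2, Axin2 134 and 130, Apc 120 and 119, and Ctnnb1 109 and 115. Axin1 is the steady scaffold of the destruction complex, while Axin2 is induced by the pathway, and the ranges of their promoter strengths overlapped. Of the ligases, Znrf3 (118 and 132) was higher than Rnf43 (83 and 105). Among the factors, Tcf7l2 (120 and 128) and Tcf7l1 (117 and 123) were the strongest, followed by Lef1 (107 and 110) and Tcf7 (78 and 94). With the 5′-most TSS alone Ctnnb1, Wnt10b and Wnt8b were not open, since their peaks lay at other annotated TSSs.

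Other genes of the pathway, from a separate list of 47, were open in 46 cases, against 69.7% of all protein-coding genes. Their median strength was 110.75, against 113.5 for all open genes. Of the 47, 38 had a CpG ratio of 0.6 or more and all 38 were open, near the 97.9% of all such genes. The glycogen synthase kinase gene Gsk3b (138 and 141 in replicates 1 and 2), the co-repressor gene Tle3 (135 and 136), its relative Tle4 (132 and 137) and Btrc, a subunit of the ubiquitin ligase that acts on beta-catenin (138 and 131), were the strongest, with Tle4 and Btrc equal in their mean. Kremen2, a receptor for Dkk proteins (45 and 59), and Sostdc1, a secreted antagonist (60 and 66), were the weakest open ones. Sost, an inhibitor made by bone cells, had no promoter peak. Notum, the enzyme that strips the lipid from Wnt proteins, had 75 and 106.

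**Figure D2:**
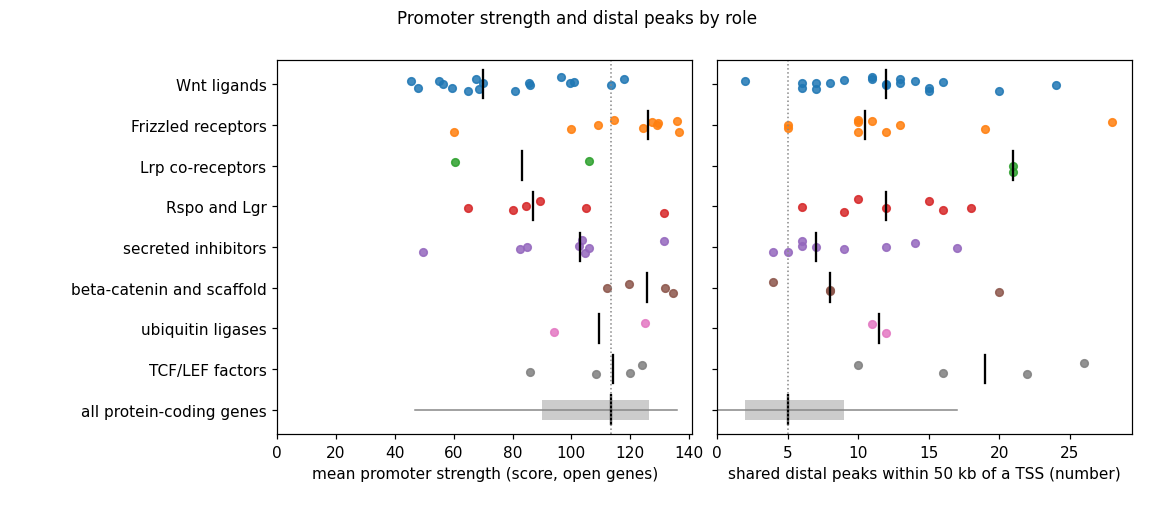
Mean promoter strength of open genes (score, left) and shared distal peaks within 50 kb (number, right), with a point for each gene by role, a black bar at each median, and for all protein-coding genes a box from the 25th to the 75th and a line from the 5th to the 95th percentile. Ligands have a median strength of 70 and Frizzled genes 126, while every role has a median of distal peaks above the 5 of all genes.

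Strength ran in parallel in the replicates. Over the 53 open genes Spearman's rho between the replicates was 0.967, against 0.946 over all 15300 open genes. These are correlations across genes of the same libraries and carry no p-value. Replicate 2 had the higher score in 44 of the 53 genes, a share near the 83.3% of all open genes. The log2 ratio of replicate 2 over replicate 1 had a median of 0.10 over all open genes. Relative to that median, the genes farthest off were Wnt8b (1.00), Wnt8a (0.51), Fzd6 (0.43), Wnt10b (0.35) and Wnt2 (0.32), all higher in replicate 2. All 5 have weak promoters, with means of 65 or less.

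The Wnt pathway genes lay among many distal peaks. Shared peaks were paired one to one between the replicates, and those over 1 kb from every protein-coding TSS were distal. Within 50 kb of their TSSs the 57 genes had a median of 11 distal shared peaks, with quartiles of 8 and 15, against a median of 5 for all protein-coding genes. In all, 51 of the 57 genes had more than 5, against 49.0% of all genes. A separate list of 47 other genes of the pathway, described above, was much alike. These had a median of 10, with quartiles of 6.5 and 17, and 40 of the 47 had more than 5. Every one of the 57 had at least 1, against 87.9% of all genes. Counted once each, these were 645 peaks, of which 494 had a member of this gene set as the nearest protein-coding TSS. By location 315 were intergenic, 267 intronic and 63 exonic.

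Counts were highest around Fzd2, with 28 distal shared peaks, from 36 in replicate 1 and 47 in replicate 2. Tcf7l1 had 26 (31 and 39), Wnt5b had 24 (29 and 39), Tcf7l2 had 22 (28 and 51), Lrp5 had 21 (23 and 27) and Lrp6 had 21 (24 and 25). Some of these genes have TSSs far apart, so that the window is wide. With the 5′-most TSS alone Tcf7l1 had 10, Wnt5b and Lrp6 had 8 each and Tcf7l2 had 12, while Fzd2, which has a single TSS, kept its 28. Around Fzd2, 14 of the 28 lay nearest to its own TSS.

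The fewest were found around Wnt16, a ligand of bone, with 2, from 5 in replicate 1 and 7 in replicate 2. Dkk4 had 4 (4 and 9), Axin1 had 4 (8 and 9), and Fzd3 (8 and 12), Fzd6 (6 and 13) and Sfrp4 (6 and 6) had 5 each. Axin1 thus had few distal peaks beside a strong promoter (133 and 136). Across the 53 open genes, Spearman's rho between promoter strength and distal count was 0.301, against 0.00835 across all open genes. Neighbouring genes share distal peaks, so the points are not independent.

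**Figure D3:**
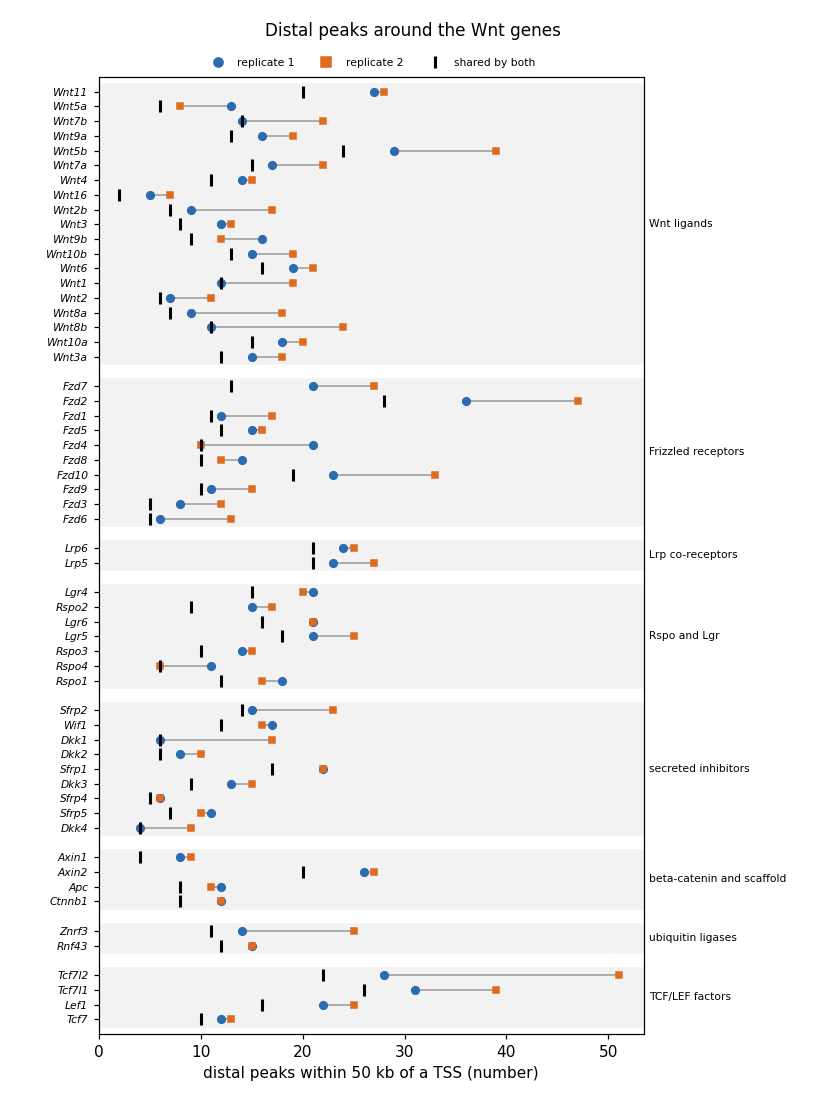
Number of distal peaks within 50 kb of a TSS (x axis) for each of the 57 genes by role, with replicate 1 as circles, replicate 2 as squares and peaks shared by both as black ticks. Fzd2 has 28 shared peaks and Wnt16 has 2, and the widest gap is at Tcf7l2, with 28 in replicate 1 and 51 in replicate 2.

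The strongest distal peaks reached the strength of promoters. The highest lay at -29568 bp from the 5′-most TSS of Wnt7a (chr6:91440856-91441005), where a minus sign means upstream, with strengths of 124 and 133 in replicates 1 and 2. It exceeded the Wnt7a promoter (77 and 95) in both replicates. Next was a peak inside an intron of Fzd3 (chr14:65245536-65245685; 118 and 127), which also exceeded its promoter. A peak at -19661 bp from Wnt11 (chr7:98815376-98815525) scored 116 and 126. A peak in an intron of Tcf7l1 (chr6:72711736-72711885) scored 120 and 121. The fifth, 8354 bp downstream of the TSS of Wnt1 and beyond the end of the gene (chr15:98798136-98798285), scored 118 and 121, above the Wnt1 promoter (53 and 60) in both replicates.

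A distal peak stronger than the promoter was frequent among ligands, and among R-spondins and their receptors. In 24 of the 53 open genes the strongest distal shared peak within 50 kb had a higher mean than the promoter, against 27.4% of all open genes. Among the ligands this held for 12 of 17, and among the open R-spondin and Lgr genes for 4 of 6. When only peaks nearest to a TSS of the gene itself were counted, it held for 18 of the 53 genes, against 17.7% of all open genes. It then held for 3 of the 6 R-spondin and Lgr genes and for 9 of the 17 ligands. The 9 include Wnt1, Wnt6 and Wnt7a. The peak of Wnt6 lies 1304 bp from a TSS, so its place among them depends on the 1 kb limit. The strongest distal peak had a median strength of 94.5 over the 17 ligands, against 89.5 over all open genes, while the promoters had medians of 70 and 113.5. The larger of these gaps was in the promoters. The strongest distal peak is taken from unequal numbers of peaks. The median count was 12 for the ligands and 12 for the R-spondin and Lgr genes, against 5 for all protein-coding genes. How far these counts affect the shares was not tested.

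**Figure D4:**
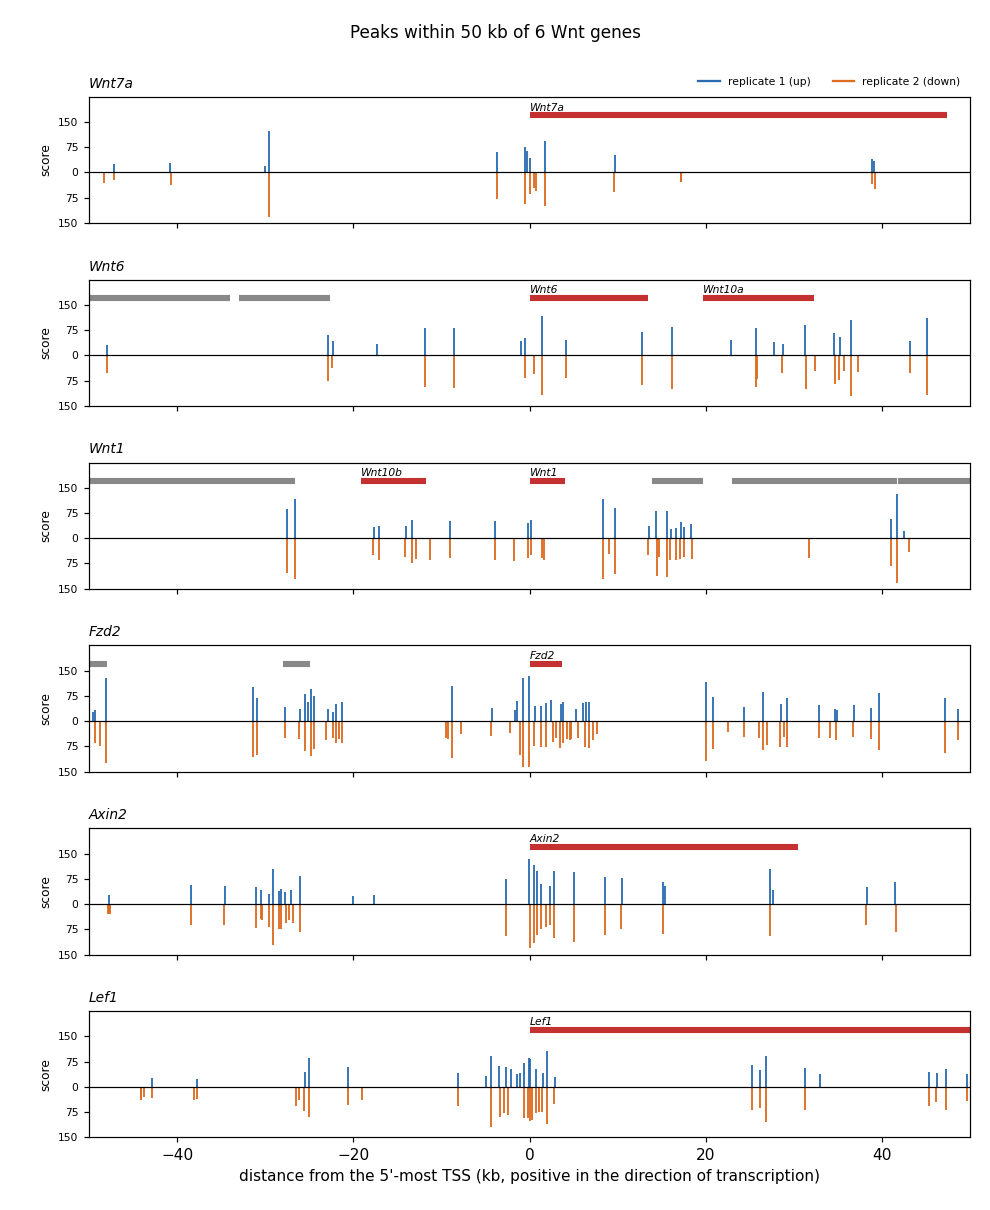
Peaks within 50 kb of the 5′-most TSS of 6 Wnt pathway genes (x axis, kb, positive in the direction of transcription), with the score of replicate 1 drawn upward and of replicate 2 downward, Wnt pathway genes in red and other genes in grey. Distal lines taller than the promoter lines stand at -29568 bp from Wnt7a and at 8354 bp from Wnt1.

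Among the ligands 4 pairs of genes lie side by side and share their surroundings. Wnt1 and Wnt10b, 11707 bp apart, have 12 distal shared peaks in common, of 12 around Wnt1 and 13 around Wnt10b. Wnt6 and Wnt10a, with 9077 bp between their nearest TSSs, have 15 in common, of 16 around Wnt6 and 15 around Wnt10a. Wnt3a and Wnt9a, 16176 bp apart, have 12 in common, of 12 around Wnt3a and 13 around Wnt9a. The counts of such partners are therefore nearly the same count. Wnt3 and Wnt9b, 24329 bp apart, have 5 in common, of 8 around Wnt3 and 9 around Wnt9b. Wnt10a, with no promoter peak in either replicate, and Wnt3a, with one in replicate 2 alone, thus lie among distal peaks, and the strongest of those nearest to Wnt10a had a mean of 115. The sixth strongest distal peak of the gene set lies in an intron of Wnt6 (chr1:74773196-74773345; 118 and 117), 1304 bp from a TSS of Wnt6. It is within reach of Wnt10a too.

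More distal peaks were called in replicate 2 than in replicate 1 around most of these genes. The median was 15 in replicate 1 and 17 in replicate 2, against 7 and 8 for all protein-coding genes. Replicate 2 had more in 42 of the 57 genes, the same number in 5 and fewer in 10. Of all 21938 genes it had more in 11223 (51.2%), the same number in 4797 and fewer in 5918. Ties were thus more common among all genes, whose counts are smaller, and they lower the share with more. With the same number of strongest peaks taken from each replicate, replicate 2 had more in 38 of the 57, against 36.0% of all genes. Ties again did not count as more. The medians were then 15 and 17 around the Wnt pathway genes, against 7 and 7 for all genes. Replicate 2 has more peaks over the whole genome. Why it still had more around these genes with equal numbers of peaks was not tested.

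The gap was uneven among genes. Tcf7l2 had 28 distal peaks in replicate 1 and 51 in replicate 2. Wnt8b had 11 and 24, and Dkk1 had 6 and 17. Around these genes, and around Wnt8a (9 and 18), Fzd6 (6 and 13) and Znrf3 (14 and 25), replicate 2 held many more. At least 2 times as many were found in 5 of the 57 genes (Dkk4 with 4 and 9 is the fifth, beside Dkk1, Wnt8b, Wnt8a and Fzd6). The share was 10.2% of all genes with 1 or more distal peaks in replicate 1, and 5.42% of those with 4 or more, the lowest count in this gene set. The opposite was seen at Fzd4 (21 and 10), Wnt5a (13 and 8), Rspo4 (11 and 6) and Wnt9b (16 and 12). Distal counts of the replicates had a Spearman's rho of 0.769 over the 57 genes, against 0.903 over all genes. These values are not directly comparable, since they cover unlike ranges. Shared distal counts ran from 2 to 28 in the 57 genes and from 0 to 76 in all genes, 2665 of which had none.

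The TCF/LEF core CTTTGAT, searched on both strands, was found in few of the peaks. It was in 8 of 160 shared peaks within 1 kb of a TSS of the Wnt pathway genes, which is 5% of them, against 1.40% of all 35149 shared TSS peaks. In windows of the same length 1 kb beside these peaks it was in 1.61%, against 2.24% beside all TSS peaks. The number of peaks with a match is small. Median GC content was 61.7% in the TSS peaks of these genes and 60% in all TSS peaks. Among TSS peaks with at most 60% GC the motif was in 4% of those of the Wnt pathway genes (3 of 75), against 2.18% of all, and above 60% GC in 5.88% (5 of 85), against 0.603% of all. A match of 7 letters describes the sequence and does not show that a factor binds.

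The 8 TSS peaks with a match belong to 7 genes. Axin2 has 2, which scored 97 and 93 in replicates 1 and 2 at 862 bp from its 5′-most TSS, and 97 and 100 at 2742 bp, near a later TSS. In Tcf7 the peak with the match, at -397 bp, was also its strongest promoter peak (78 and 94). The peak of Dkk1 lies at -766 bp and scored 43 and 62, below its main peak (105 and 104). In Wnt11 the match lies in the peak at the 5′-most TSS (43 and 68), while its strongest peak (119 and 117) lies by a later TSS and holds none. The other matches are in Dkk2 (54 and 83), Dkk3 (59 and 75) and Wnt16 (76 and 84). Of the 7 genes, Dkk1 to Dkk3 were grouped here with the secreted inhibitors, and Axin2 restrains the pathway inside the cell.

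Away from TSSs, CTTTGAT was in 27 of the 645 distal peaks, which is 4.19%, against 3.19% of all 116942 distal shared peaks. Windows 1 kb beside them held it in 2.66%, against 2.55% beside all distal peaks. In the stronger 50% of peaks the distal shares were 5.54% (24 peaks of these genes) and 2.93% of all, a wider gap. The numbers of peaks with a match are small here too, and neither gap was tested. The matches fell around 20 of the 57 genes. Lef1 had the most peaks with a match, 4 of its 16, and the strongest of these lies in its gene (93 and 103). A peak at -8805 bp from Fzd2 (105 and 109) holds 2 matches, as its sequence above shows. A peak in an intron of Znrf3 (83 and 92) and peaks near Dkk3 (103 and 108) and in Wnt10a (80 and 94) also hold it. So does a peak 19083 bp from the TSS of Wnt8a (86 and 102), which lies nearer to a TSS of another gene, Nme5.

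Longer and related motifs gave other shares. CTTTGATC, which contains CTTTGAT, was in 1.25% of the TSS peaks of these genes, against 0.313% of all. It was in 1.55% of their distal peaks, against 0.953% of all distal peaks. In the windows beside distal peaks it was in 0.918% for these genes, against 0.563% for all. CTTTGTT, a core shared with Sox factors, was in 3.75% of the TSS peaks of these genes, against 2.64% of all. It was in 4.65% of their distal peaks, against 5.66% of all. In the windows beside distal peaks it was in 3.21% for these genes, against 3.87% for all. In distal peaks the order of members and all peaks was therefore not the same for CTTTGAT and CTTTGTT.

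**Figure D5:**
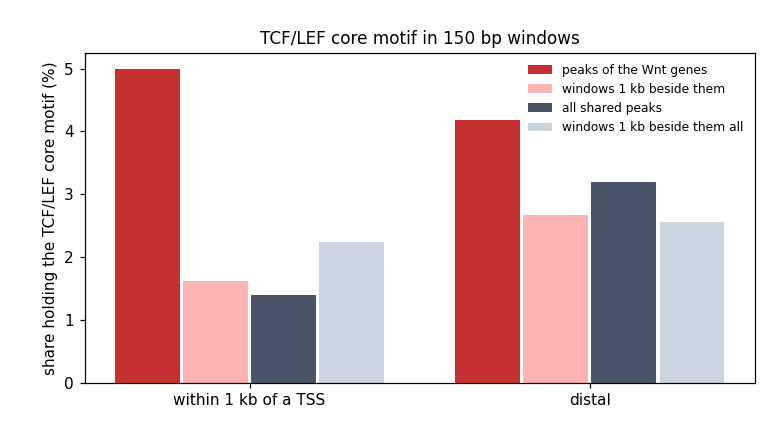
Share of 150 bp windows that hold CTTTGAT on either strand (y axis, percent), for shared peaks of the Wnt pathway genes, windows 1 kb beside them, all shared peaks and windows beside those, within 1 kb of a TSS and distal. At TSSs the share is 5% for the Wnt pathway genes, from 8 of 160 peaks, and 1.40% for all peaks, while the distal shares are 4.19% and 3.19%.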

How the data were processed

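DNase-seq was measured in 2 biological replicates, per the labels, and p-values were not computed because there is 1 group. The peaks of 150 bp and their score were deposited by the authors for each replicate separately on mm10, and what the score means is not stated. The aligner and peak caller have names not given in the sources used here. Hotspots were deposited with a −log10 q-value, which was not used beyond their positions. The number of reads is unknown, so no interval for depth was computed.

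Repeated lines were dropped (28 in replicate 1 and 47 in replicate 2), and peaks off the nuclear chromosomes were left out. Peaks of the replicates were paired one to one by their best overlap of at least 1 bp, giving 152091 pairs. TSSs came from all transcripts of protein-coding genes in GENCODE M21, and peaks over 1 kb from all of them were distal (116942 pairs). Observed to expected CpG was counted 500 bp to each side of the 5′-most TSS. Sequences came from RefSeq GRCm38.p6. Python 3.11.15, numpy 2.4.6, pandas 2.3.3, scipy 1.17.1 and matplotlib 3.10.9 were used, and the pairing and counting were tested on simulated data.

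The members and lists were chosen with earlier results of these data known. Every gene of the set is accounted for. Values in both replicates are given for genes without a shared promoter peak, the 3 strongest and the weakest of each role, the 5 with most and with fewest distal peaks, the 5 strongest distal peaks, the 5 largest replicate ratios, genes with CTTTGAT in a TSS peak, the distal peaks with most matches and neighbouring Wnt genes. Further genes were named after their values were seen. Alternatives were other windows, TSSs, overlaps, score limits, CpG limits and motifs, and each replicate alone.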

Additional observations from a re-analysis of the deposited data

How the results depend on the processing

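The number of Wnt pathway genes with an open promoter was 50 to 54 under every alternative run. Wnt8a was lost with a 500 bp window, Wnt8a and Wnt8b with the stronger 50% of peaks, and Ctnnb1, Wnt10b and Wnt8b with the 5′-most TSS alone, while Rspo1 was gained with the wider window. The median promoter strength was 96.5 to 104.5. The other pathway genes were open in 46 or 47 cases. In all, 29 alternative values stayed close to the reported ones and 15 moved.

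The median of 11 distal peaks depended on its definition. It was 6 within 20 kb, against 2 for all genes, and 19 within 100 kb, against 11. With the 5′-most TSS it was 9, against 4, with the stronger 50% of peaks 7, against 3, and with each peak given only to the gene of the nearest TSS 8, against 2. With either replicate alone, where peaks need not be shared, it was 15 to 17, against 7 to 8. The members' median was above that of all genes in each of these.

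The share of distal peaks with the motif was 1.55% for CTTTGATC, against 0.953% of all distal peaks, and 4.65% for CTTTGTT, against 5.66%. For CTTTGAT it was 5.54% in the stronger 50% of peaks, against 2.93%, and 3.83% to 4.28% with either replicate alone, against 3.09% to 3.35%. At TSSs it was 1.25%, against 0.313%, 3.75%, against 2.64%, and 5.88%, against 1.26%, under the same changes, and 4.39% to 4.84% with either replicate alone, against 1.47% to 1.56%. Apart from the change of motif, the cause was not tested. Alternatives chosen after seeing the data gave a median of 11 and a share of 3.94% with TSSs of all gene types, and a median of 10 with peaks under 500 bp apart counted once. No paired analysis was possible because there is 1 group. Depth is unknown, so a promoter without a peak is not shown to be closed.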

Other observations

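Hotspots, the wider open regions called by the authors, differed in width between the replicates at the Wnt pathway promoters. The widest hotspot within 1 kb of a TSS had a median width of 577 bp in replicate 1 and 2147 bp in replicate 2 over 53 Wnt pathway genes, against 840 bp and 1484 bp over the 15355 protein-coding genes with a hotspot in both. It was wider in replicate 2 in 52 of the 53, against 94.5% of all genes, and Wif1 was the exception with 1275 bp and 1259 bp. At Tcf7l2 it spanned 903 bp in replicate 1 and 4877 bp in replicate 2, and at Fzd1 1005 bp and 4271 bp. Wnt5a (2813 bp and 3649 bp) and Fzd8 (3751 bp and 5077 bp) were wide in both.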
